A study of Caenorhabditis elegans with 24 samples.

Results

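Whole-worm mRNA of fed Caenorhabditis elegans was compared between cep-1(gk138) mutants and zip-2(tm4248) mutants, with 3 libraries of each. The 6 libraries, out of 24 in the series, were chosen by strain and food alone. The remaining libraries, from starved cep-1 and zip-2 mutants and from fed and starved efk-1(ok3609) mutants and N2 wild type, with 3 in each group, served as context and helped to estimate the spread. All animals were hermaphrodites grown from synchronized L1 larvae on OP50 bacteria until the middle of the L4 stage. Fed animals were frozen there, and starved animals were first kept 8 h without bacteria. Libraries are named below by the strain in their labels, as cep1, zip2, efk1 and N2. The labels do not state whether replicates came from separate cultures, so the p-values measure the spread between these libraries, which may be technical.

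CEP-1 is the worm member of the p53 family of transcription factors. It is best known for triggering germ cell death after DNA damage through the BH3-only genes egl-1 and ced-13. ZIP-2 is a bZIP transcription factor of the intestinal defence against Pseudomonas aeruginosa and against disturbed translation, and irg-1 and irg-2 are its best known dependent genes. A direct comparison of the mutants uses no N2 library on either side, although N2 libraries enter the shared estimate of spread.

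Total counts were 24006670, 21599459 and 22180087 in the fed cep1 libraries and 18532686, 17701901 and 20825159 in the fed zip2 libraries, within a range of 14622266 to 30266282 over the 24 libraries. Pearson's r of log2 levels between replicates, computed across genes, was 0.958 to 0.982 in fed cep1 and 0.987 to 0.991 in fed zip2. Levels below are in CPM, a gene's counts relative to the total of its library, scaled by trimmed-mean factors, and fold changes are cep1 over zip2 on the log2 scale. A gene is called where the Benjamini-Hochberg adjusted p over all 15871 genes tested was under 0.05. Markers were in keeping with young hermaphrodites, a check that rests on few genes of low level. Of 10 male markers 6 could be tested, and of 9 early embryo markers 3. Summed male markers lay at 1.5 to 2.85 CPM in fed cep1 and 2.23 to 2.91 CPM in fed zip2. Summed early embryo markers lay at 0.316 to 1.13 CPM in fed cep1 and 0.0579 to 0.258 CPM in fed zip2, every cep1 library above every zip2 library. Muscle, intestine, neuron and germline marker lists were expressed in every library.

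Neither targeted gene was called by edgeR at the level of gene counts. cep-1, which lies at chromosome I, 8324286 to 8328859 of WBcel235 on the plus strand, was at 51.8, 39.3 and 30.0 CPM in the fed cep1 libraries, against 49, 36.5 and 42.6 CPM in the fed zip2 libraries (log2 fold change -0.08, SE 0.33, edgeR adjusted p 0.92). The groups overlapped, and the small difference changed sign without fed cep1 replicate 3. zip-2, at chromosome III, 832982 to 835814 on the plus strand, was at 196, 257 and 437 CPM in the fed cep1 libraries, against 148, 198 and 134 CPM in the fed zip2 libraries (log2 fold change 0.89, SE 0.25, edgeR adjusted p 0.072). zip2 replicates 1 and 3 lay below every fed cep1 library and replicate 2 just above cep1 replicate 1, and the difference was called without fed cep1 replicate 1 (adjusted p 0.0311, edgeR) and by DESeq2 (adjusted p 0.0191). Estimated counts per gene do not separate a deleted transcript from a full one, so neither gene checks its label here. efk-1, the kinase of translation elongation factor eEF2, was not targeted in either strain and was at 69.1, 59.2 and 45.8 CPM in cep1, against 42.5, 30.8 and 40.9 CPM in zip2 (log2 fold change 0.61, SE 0.19, edgeR adjusted p 0.0962). It was called without cep1 replicate 3 (edgeR adjusted p 0.0281) and by DESeq2 (0.048).

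A pair of infection response genes, irg-2 and irg-5, was higher in the cep1 than in the zip2 libraries. The list of infection response genes held irg-1 and irg-2 but also genes not taken here as ZIP-2 dependent, such as irg-5. Its values therefore do not describe ZIP-2 dependent genes alone. Of its 8 genes 6 could be tested, and 2 were called higher (33.3%, beside 1.15% over all genes) and 0 lower (0.554% over all genes). The median log2 fold change was 1.39, beside 0.0064 over all genes tested. DESeq2 called 3 genes of the list higher, beside 534 of 15871 over all genes. irg-2, at chromosome V, 4042181 to 4043601, had 22, 89 and 220 counts in the fed cep1 libraries, against 0, 1 and 2 counts in the fed zip2 libraries. The ratio of summed levels was 88.0, with an exact 95% interval of 29.9 to 429 that covers counting error only (log2 fold change 6.30, SE 1.21, edgeR adjusted p 0.00921). Every fed zip2 library lay below all 9 other fed libraries, which stood at 0.862 to 2.02 CPM in efk1 and 0.955 to 1.62 CPM in N2. The call did not survive leaving out any 1 of the zip2 libraries, with adjusted p up to 0.0638 without replicate 3. irg-5, an infection response gene under p38 kinase control, was at 31.5, 146 and 116 CPM in the fed cep1 libraries, against 18.5, 26.3 and 18.4 CPM in the fed zip2 libraries (log2 fold change 2.21, SE 0.49, edgeR adjusted p 0.0242). Its groups did not overlap, but its call was lost without any 1 zip2 library or cep1 replicate 2, with adjusted p up to 0.129. The others were not called by edgeR. irg-1 was at 0.975, 5.27 and 10.8 CPM in cep1, against 0.687, 2.02 and 1.12 CPM in zip2 (log2 fold change 2.16, edgeR adjusted p 0.104), with cep1 replicate 1 inside the zip2 range. It was called without that library (edgeR adjusted p 0.0357) and by DESeq2 (0.0374). irg-3, irg-4 and irg-7 had log2 fold changes of 0.56, 0.63 and 0.41. C49G7.10 lies next to irg-2, at chromosome V, 4040409 to 4042021, and was at 6.66, 13.3 and 32.6 CPM in cep1, against 1.74, 1.56 and 2.06 CPM in zip2 (log2 fold change 3.28, SE 0.62, edgeR adjusted p 0.00831). It shared the low values of all 3 zip2 libraries, while efk1 stood at 14.5 to 20.5 CPM and N2 at 8.64 to 11.6 CPM. Without zip2 replicate 2 or 3 its adjusted p was 0.0575 and 0.0545.

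Genes of cell death and DNA repair, the processes best known for CEP-1, gave 0 calls with edgeR, beside 1.71% over all genes. For lists of 21 and 59 tested genes, 0 calls is close to that share. Of 21 tested genes of the apoptosis list 17 had a positive sign with a median log2 fold change of 0.42, 6 had an unadjusted p under 0.05 and DESeq2 called 1. Of 59 DNA damage and repair genes 57 had a positive sign with a median of 0.42, 13 had an unadjusted p under 0.05 and DESeq2 called 1. Over all genes 20% had an unadjusted p under 0.05, and DESeq2 called 817 of 15871. egl-1 was close to the limit of detection at 0.203, 0.405 and 0.277 CPM in cep1, against 0.0529, 0.231 and 0.129 CPM in zip2 (log2 fold change 1.09, SE 0.53, edgeR adjusted p 0.254). ced-13 had 1 count in the 6 libraries together and was not tested. ced-3, the cell death caspase, was at 109, 62.4 and 37.3 CPM in cep1, against 50.7, 32.5 and 31.1 CPM in zip2, and ced-1, the engulfment receptor, at 51.8, 44.2 and 34.5 CPM in cep1, against 30.3, 26.5 and 25.2 CPM in zip2 (edgeR adjusted p 0.142 and 0.0661). parp-1, a poly(ADP-ribose) polymerase, was at 132, 100.2 and 74.9 CPM in cep1, against 69.9, 60.1 and 55.8 CPM in zip2 (log2 fold change 0.73, SE 0.21, edgeR adjusted p 0.072). The summed level of the repair list was 3644, 2706 and 1770.0 CPM in fed cep1 and 2346, 1806 and 1917 CPM in fed zip2. The cep1 libraries stood in the same order here as for summed oocyte genes, and the part of germline stage was not tested.

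Over all genes, 271 were called between fed cep1 and fed zip2 (1.71% of those tested). Of these, 183 were higher in cep1 (1.15%) and 88 lower (0.554%), and 3182 genes (20%) had an unadjusted p under 0.05. A change of at least 2-fold was seen in 227 of the 271 and of at least 4-fold in 91. The median log2 fold change was 1.68 among the genes called higher and -1.39 among those called lower. Of 15390 protein-coding genes tested 249 were called, and of 188 noncoding RNAs (ncRNA) 17, a larger share than the 1.71% over all genes. Scaling by upper quartiles gave 147 higher and 114 lower, so the share of higher genes was 56.3% with that scaling and 67.5% here. Fitting the 6 libraries alone called 80 genes, 61 of them among the 271. The count ran from 60 without zip2 replicate 3 to 1184 without cep1 replicate 3 over the fits without 1 library, and DESeq2 called 817.

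**Figure D1:**
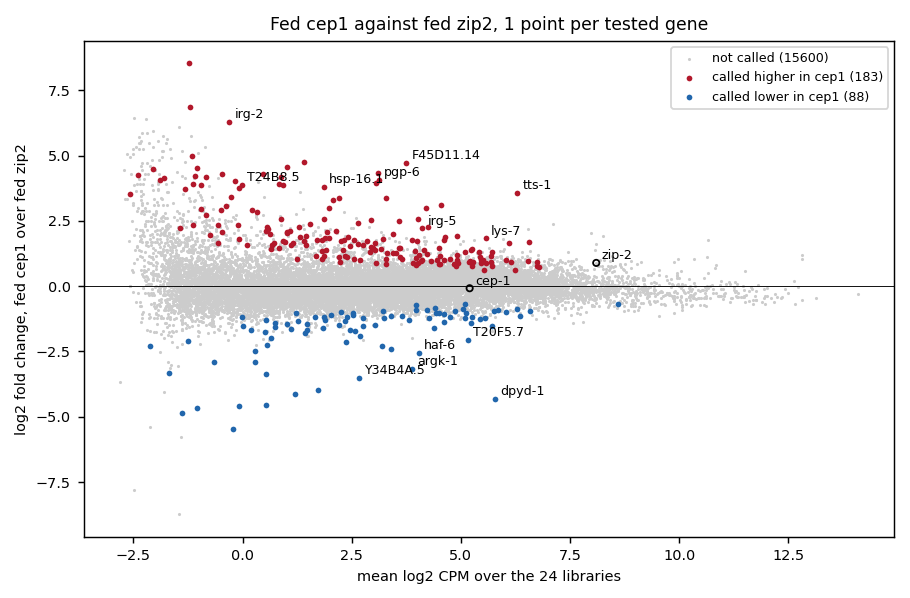
Mean level of each of the 15871 genes tested (x axis, mean log2 CPM over the 24 libraries) against its log2 fold change, fed cep1 over fed zip2 (y axis). Red points are the 183 genes called higher in cep1, blue points the 88 called lower, grey points the rest, and the black rings mark cep-1 and zip-2. The lowest blue point with an abundant transcript is dpyd-1 at -4.30, while cep-1 lies at -0.08.

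For the 6 libraries of a contrast, complete separation was common: 4346 genes (27.4%) had no overlap between fed cep1 and fed zip2, 1750 (11%) with cep1 above and 2596 (16.4%) with cep1 below. Among the called genes 244 did not overlap, 156 of the 183 higher genes and all 88 of the lower ones. The efk1 and N2 libraries show which mutant stood apart. Of the 88 genes lower in cep1, all 3 cep1 libraries lay below the 9 other fed libraries in 77 (7.7% of all tested genes do so), and all 3 zip2 libraries lay above their 9 others in 7 (0.706%). Of the 183 genes higher in cep1, the cep1 libraries lay above the 9 others in 108 (5.1%) and the zip2 libraries below theirs in 37 (0.914%). Both held for 8 of the higher and 3 of the lower genes, and neither for 46 and 7. These counts are descriptions, because the contrast itself chose the genes.

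The genes lower in cep1 were led by a transcript of pyrimidine breakdown. dpyd-1 encodes dihydropyrimidine dehydrogenase, which opens the degradation of uracil and thymine, and lies at chromosome X, 5467870 to 5472683. It was at 6.95, 5.31 and 9.57 CPM in the fed cep1 libraries, against 140.0, 146 and 145 CPM in the fed zip2 libraries (log2 fold change -4.30, SE 0.24, edgeR adjusted p 6.68e-10). All cep1 libraries stood far below the zip2, efk1 and N2 libraries, whose lowest fed value was 127.9 CPM. It was the 1 called gene among 22 tested genes of pyrimidine breakdown and salvage (4.55%, beside 1.71% over all genes), whose median log2 fold change was -0.05. Y34B4A.5, at chromosome X, 5257299 to 5258384, was at 0.609, 0.932 and 1.03 CPM in the fed cep1 libraries, against 8.72, 9.84 and 11 CPM in the fed zip2 libraries (log2 fold change -3.51, SE 0.39, edgeR adjusted p 3.02e-05). Again the other 6 fed libraries, at 12 to 15.6 CPM in efk1 and 10.3 to 13.1 CPM in N2, lay with zip2. T20F5.7, at chromosome I, 3925434 to 3927891, was at 14.1, 12.6 and 9.33 CPM in the fed cep1 libraries, against 52.2, 53.5 and 43.3 CPM in the fed zip2 libraries (log2 fold change -2.05, SE 0.19, edgeR adjusted p 2e-06). T12B3.2 was at 2.32, 2.35 and 3.48 CPM in cep1, against 15.1, 13.2 and 11.2 CPM in zip2 (log2 fold change -2.28, edgeR adjusted p 0.000309), where efk1 lay between the mutants at 5.78 to 6.73 CPM. The genes dpyd-1, Y34B4A.5, T20F5.7 and T12B3.2 were called under every alternative tried.

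haf-6 followed another pattern. This ABC transporter, known for its role in RNA interference, lies at chromosome I, 1162880 to 1175809. It was at 7.43, 8.26 and 6.88 CPM in the fed cep1 libraries, against 42.3, 42.1 and 47.1 CPM in the fed zip2 libraries (log2 fold change -2.54, SE 0.22, edgeR adjusted p 1.18e-06). Here the cep1 libraries stood with N2 at 5.76 to 7.92 CPM, and the zip2 libraries with efk1 at 39.9 to 46.6 CPM. The gap between these pairs of strains was many times the spread within any group. haf-6 was the 1 gene called lower among 50 tested ABC transporters, beside 0.554% over all genes. Another 2 were called higher, beside 1.15% over all genes, so that 6% of the list was called.

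Other lower genes included 2 pairs of neighbours on chromosome V. ttr-40 and ttr-49, transthyretin-related genes chosen after their values were seen, are neighbours at chromosome V, 9354521 to 9355471 and 9355505 to 9356515. ttr-40 had 1, 0 and 1 counts in the fed cep1 libraries, against 26, 23 and 37 in the fed zip2 libraries, a ratio of 0.0186 with an exact 95% interval of 0.00221 to 0.0691 for counting error (log2 fold change -5.46, SE 0.55, edgeR adjusted p 8.54e-06). ttr-49 was at 0.162, 0.324 and 0.395 CPM in cep1, against 4.81, 6.31 and 4.68 CPM in zip2 (log2 fold change -4.13, SE 0.50, edgeR adjusted p 0.000116). Both were low in the cep1 libraries alone among the 12 fed libraries. argk-1, an arginine kinase, and cth-1, a cystathionine gamma-lyase of transsulfuration, are also neighbours, at chromosome V, 16103894 to 16105952 and 16100680 to 16102750. argk-1 was at 10.2, 9.28 and 6.88 CPM in cep1, against 59, 37.5 and 140.4 CPM in zip2 (log2 fold change -3.17, SE 0.78, edgeR adjusted p 0.0406), and cth-1 at 56.7, 29 and 23.4 CPM in cep1, against 86.6, 77.6 and 147 CPM in zip2 (log2 fold change -1.51, edgeR adjusted p 0.042). In both genes zip2 replicate 3 held the highest value. The argk-1 call was lost without any 1 of the 6 libraries, and its log2 fold change was -2.46 with adjusted p 0.184 (edgeR) without zip2 replicate 3. The cth-1 call was lost in 5 of the 6 such fits, with adjusted p 0.199 without the same library. cth-1 was the 1 gene called of 23 of the methionine cycle (4.35%, beside 1.71% over all genes).

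Further lower genes carried smaller or less steady differences. F01G12.19, a noncoding RNA of the X chromosome, was at 1.87, 1.99 and 2.1 CPM in cep1, against 9.04, 9.84 and 7.64 CPM in zip2 (log2 fold change -2.15, SE 0.34, edgeR adjusted p 0.0018). ZK1193.2 was at 11.3, 7.58 and 9.69 CPM in cep1, against 27.1, 29.8 and 30.7 CPM in zip2 (log2 fold change -1.62, SE 0.21, edgeR adjusted p 0.000283), with efk1 above both at 41.9 to 47.3 CPM. F08D12.2 and R07C3.13 had log2 fold changes of -1.68, edgeR adjusted p 0.00468 and -1.90, edgeR adjusted p 0.0365. R07C3.13 lost its call without any 1 zip2 library or without cep1 replicate 1 or 2, with adjusted p up to 0.136. phat-2, a gene of the pharyngeal glands and the 1 call among 9 tested pharynx markers, was at 2.92, 8.95 and 3.48 CPM in cep1, against 23.6, 30.3 and 26.7 CPM in zip2 (log2 fold change -2.39, SE 0.53, edgeR adjusted p 0.0262). Its call was lost without any 1 zip2 library or cep1 replicate 1, with adjusted p up to 0.125. The cytochrome P450 gene cyp-34A2 was at 0.934, 1.34 and 1.74 CPM in cep1, against 3.7, 5.67 and 3.78 CPM in zip2 (log2 fold change -1.70, SE 0.39, edgeR adjusted p 0.0301). The call was lost without any 1 zip2 library or cep1 replicate 1 or 2 (adjusted p up to 0.151), and its fed efk1 libraries at 1.24 to 2.31 CPM lay near cep1. fog-3, a Tob family gene of sperm fate chosen after its values were seen, was at 3.41, 3.69 and 4.03 CPM in cep1, against 8.67, 8.91 and 14.3 CPM in zip2 (log2 fold change -1.52, edgeR adjusted p 0.0288). Without zip2 replicate 3 its adjusted p was 0.164, and 4 other single omissions also ended the call. clec-206, a C-type lectin gene, was at 0.203, 1.74 and 2.21 CPM in cep1, against 18.7, 8.04 and 16.8 CPM in zip2 (log2 fold change -3.38, SE 0.61, edgeR adjusted p 0.0053). It was the 1 lectin called lower against 5 called higher of 169 tested (3.55% called, beside 1.71% over all genes). It lost its call when only the 6 libraries were fitted, with or without replicate number as a block (adjusted p up to 0.0761).

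Among the genes higher in cep1, one group was high in the cep1 libraries against all other fed strains. T24B8.5, a small secreted peptide gene under p38 kinase control that was chosen after its values were seen, was at 15, 14.2 and 9.02 CPM in the fed cep1 libraries, against 0.634, 1.33 and 0.644 CPM in the fed zip2 libraries (log2 fold change 3.88, SE 0.43, edgeR adjusted p 2.84e-05). The efk1 and N2 libraries, at 0.578 to 1.02 CPM and 0.443 to 1.06 CPM, lay with zip2. C32H11.4, at chromosome IV, 12921264 to 12923296, was at 52.3, 35 and 28.9 CPM in cep1, against 5.34, 9.49 and 5.71 CPM in zip2 (log2 fold change 2.50, SE 0.32, edgeR adjusted p 0.00021). dod-22, a gene first found downstream of the insulin-pathway factor DAF-16, lies within the same stretch of chromosome IV, from 12965374, and was at 27.8, 12.8 and 27.3 CPM in cep1, against 2.91, 5.9 and 4.03 CPM in zip2 (log2 fold change 2.40, SE 0.41, edgeR adjusted p 0.00403). Neither gene overlapped between the mutants or with efk1 or N2. The dod-22 call was lost when cep1 replicate 1 and zip2 replicate 3 were both left out (adjusted p 0.0708, edgeR). dod-3 was at 4.55, 2.03 and 0.949 CPM in cep1, against 0, 0.116 and 0.172 CPM in zip2 (log2 fold change 4.57, SE 0.91, edgeR adjusted p 0.0116). Its call was lost without any 1 zip2 library or cep1 replicate 1, with adjusted p up to 0.0621. Of 24 tested dod genes and DAF-16 targets 3 were called higher (12.5%, beside 1.15% over all genes) and 0 lower (0.554% over all genes). The calls were dod-22, dod-3 and lys-7, while 7 genes of the list had a negative sign and its median log2 fold change was 0.29. In starved animals 2 of the list were called higher and 2 lower, with a median of -0.02.

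tts-1 is a long noncoding RNA that is abundant in dauer larvae and in long-lived insulin-receptor mutants. It was at 11.3, 59.8 and 46.6 CPM in the fed cep1 libraries, against 3.7, 3.65 and 2.57 CPM in the fed zip2 libraries (log2 fold change 3.57, SE 0.51, edgeR adjusted p 0.000648). The fed efk1 and N2 libraries, at 4.08 to 5.87 CPM and 1.72 to 5.12 CPM, lay near zip2, and cep1 replicate 1 was the lowest of its group but above all of them. C50F7.5 was at 7.68, 15.7 and 16 CPM in cep1, against 2.43, 1.5 and 0.73 CPM in zip2 (log2 fold change 3.09, SE 0.54, edgeR adjusted p 0.00449), T26H5.9 at 11.5, 8.31 and 7.47 CPM in cep1, against 1.53, 2.02 and 1.03 CPM in zip2 (log2 fold change 2.58, SE 0.39, edgeR adjusted p 0.00117) and F22B7.9 at 3.66, 18.2 and 8.42 CPM in cep1, against 1.74, 1.79 and 1.72 CPM in zip2 (log2 fold change 2.52, SE 0.39, edgeR adjusted p 0.00128). All 3 were higher in every cep1 library than in any other fed library, and the F22B7.9 call was lost when only the 6 libraries were fitted (adjusted p 0.0888, edgeR). F45D11.14 was at 16.9, 14.5 and 16.4 CPM in cep1, against 0, 0 and 1.63 CPM in zip2 (log2 fold change 4.72, SE 0.90, edgeR adjusted p 0.0107). Its value rested on zip2 replicate 3, without which every zip2 library is listed at 0, as are all 3 fed efk1 libraries, while N2 reached 4.78 to 13.1 CPM. The call was lost without zip2 replicate 2 (adjusted p 0.0579, edgeR).

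Several heat-inducible genes, 4 of the hsp-16 family and the HSP70 gene F44E5.4, were higher in cep1, with a wide spread. Small heat shock proteins are chaperones induced by heat and protein damage under the factor HSF-1. Of 21 tested cytosolic heat shock genes 5 were called higher (23.8%, beside 1.15% over all genes) and 0 lower (0.554%), 8 had a negative sign, and the median log2 fold change of the list was 0.15. DESeq2 called 6 higher and 1 lower, beside 534 and 283 of 15871 over all genes. hsp-12.2, another small heat shock gene, was not called and had a log2 fold change of -0.84 (edgeR adjusted p 0.0991). hsp-16.1 was at 10.8, 113 and 54.3 CPM in the fed cep1 libraries, against 2.43, 7.52 and 2.88 CPM in the fed zip2 libraries (log2 fold change 3.80, SE 0.68, edgeR adjusted p 0.0053), and hsp-16.48 at 11.6, 116 and 59.4 CPM in cep1, against 3.17, 10.8 and 4.08 CPM in zip2 (log2 fold change 3.38, SE 0.65, edgeR adjusted p 0.00916). cep1 replicate 2 was highest, replicate 1 lowest, and zip2 replicate 2 the highest of its group in both genes. The annotation gives each of these names to more than 1 near-identical gene on chromosome V, so reads may be shared between copies. hsp-16.2 and hsp-16.41, neighbours on the same chromosome from 1804334 to 1805875, had log2 fold changes of 4.20, edgeR adjusted p 0.0148 and 4.21, edgeR adjusted p 0.0158. hsp-16.2 had 23, 295 and 169 counts in fed cep1, against 6, 12 and 2 in fed zip2. hsp-16.41 had 10, 351 and 152 counts in fed cep1, against 3, 14 and 4 in fed zip2, with cep1 replicate 1 inside the zip2 range. F44E5.4, an inducible HSP70 gene, was at 23, 351 and 220.4 CPM in cep1, against 13.3, 32.5 and 11.2 CPM in zip2 (log2 fold change 3.38, SE 0.76, edgeR adjusted p 0.0262), and cep1 replicate 1 lay inside the zip2 range. hsp-70 was at 1.83, 16.6 and 10.2 CPM in cep1, against 0.952, 3.3 and 0.901 CPM in zip2 and was not called (edgeR adjusted p 0.0582), and neither was hsf-1 (log2 fold change 0.48, edgeR adjusted p 0.191). Without cep1 replicate 1, hsp-70 was called, with adjusted p 0.00919 (edgeR). It was also called without cep1 replicate 3 (edgeR adjusted p 0.0459) and by DESeq2 (adjusted p 0.0112). hsf-1 was called without cep1 replicate 3 (edgeR adjusted p 0.044) but not by DESeq2 (adjusted p 0.179). All 5 calls were lost without zip2 replicate 3, with adjusted p from 0.0600 for hsp-16.1 to 0.152 for F44E5.4. hsp-16.2, hsp-16.41, hsp-16.48 and F44E5.4 were also lost without zip2 replicate 1 or cep1 replicate 2 (up to 0.121), and F44E5.4 without zip2 replicate 2 (0.0512).

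A second group of higher genes was low in the zip2 libraries against all other fed strains. pgp-5 and pgp-6 encode P-glycoprotein transporters and are neighbours on the X chromosome, at 10854216 to 10859297 and 10871201 to 10877425. pgp-6 was at 18.7, 45.3 and 106 CPM in the fed cep1 libraries, against 3.49, 3.01 and 3.52 CPM in the fed zip2 libraries (log2 fold change 4.08, SE 0.63, edgeR adjusted p 0.00129). The zip2 libraries lay below efk1 at 15.3 to 22 CPM and N2 at 16.3 to 21.9 CPM, within whose span cep1 replicate 1 also fell. pgp-5 was at 6.5, 16.2 and 40.02 CPM in cep1, against 0.37, 0.868 and 1.03 CPM in zip2 (log2 fold change 4.77, SE 0.86, edgeR adjusted p 0.0054), with efk1 at 4.58 to 7.09 CPM and N2 at 2.92 to 7.68 CPM. Both were called under every alternative tried. Y58A7A.3 was at 18.6, 32.2 and 68.9 CPM in cep1, against 2.11, 1.68 and 2.15 CPM in zip2 (log2 fold change 4.33, SE 0.68, edgeR adjusted p 0.00179), and catp-3, a cation-transporting ATPase, at 18.8, 63.1 and 60.8 CPM in cep1, against 5.23, 6.54 and 6.22 CPM in zip2 (log2 fold change 2.99, SE 0.50, edgeR adjusted p 0.00298). In both genes every zip2 library was below every other fed library, and cep1 replicate 1 lay below the efk1 libraries. lys-7, a lysozyme gene, was at 49, 118 and 82.1 CPM in cep1, against 19, 24.3 and 26.5 CPM in zip2 (log2 fold change 1.83, SE 0.37, edgeR adjusted p 0.0131), with efk1 at 31.7 to 45.8 CPM and N2 at 41.7 to 56.8 CPM. Its call was lost without any 1 zip2 library or cep1 replicate 2 (adjusted p up to 0.0854). parg-2, a poly(ADP-ribose) glycohydrolase gene chosen after its values were seen, had 16, 39 and 143 counts in fed cep1, against 0, 0 and 1 in fed zip2. The ratio was 158 with an exact 95% counting interval of 28.0 to 6270 (log2 fold change 6.87, SE 1.21, edgeR adjusted p 0.00468). Its efk1 libraries stood at 0.578 to 0.78 CPM, and its call was lost when only the 6 libraries were fitted (adjusted p 0.0709, edgeR). Its N2 levels are not given here, so the place of parg-2 in this group is shown against efk1 and cep1 only.

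**Figure D2:**
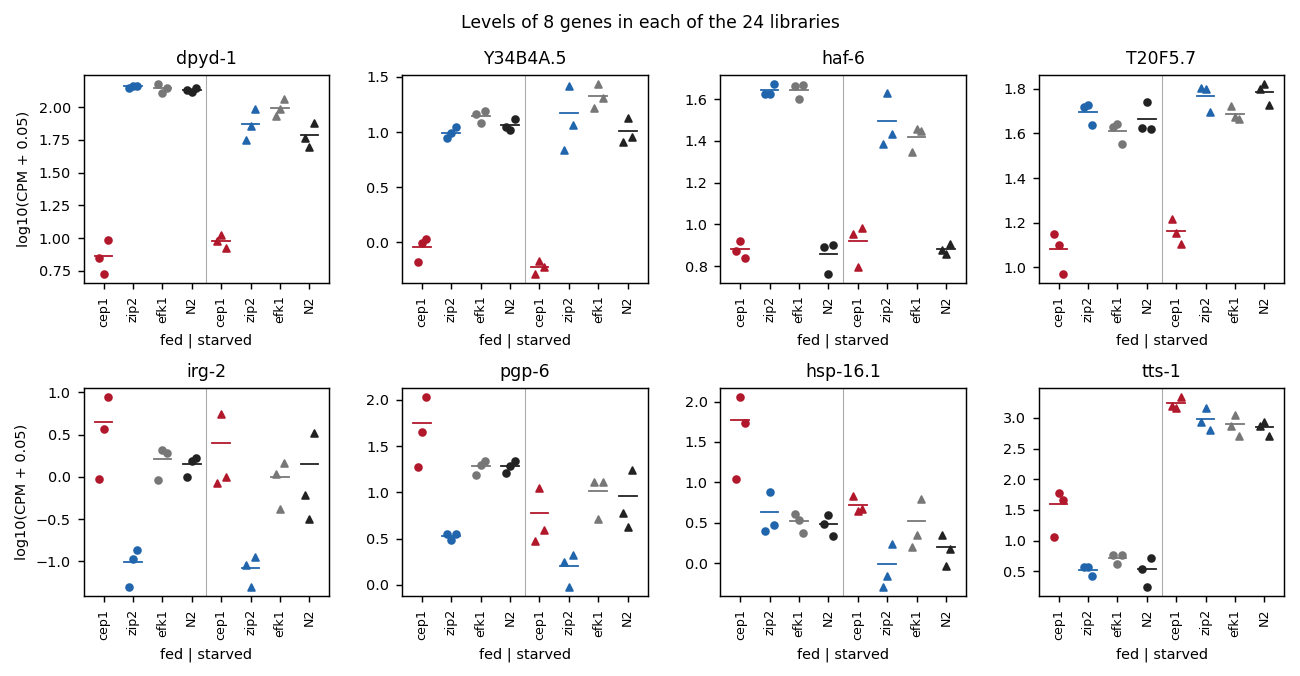
Levels of 8 genes in each of the 24 libraries, as log10(CPM + 0.05) on the y axis, fed (circles) left and starved (triangles) right of the line, with the group mean as a bar. dpyd-1, Y34B4A.5 and T20F5.7 are low in cep1 in both conditions, haf-6 is low in cep1 and N2, irg-2 and pgp-6 are low in zip2, and hsp-16.1 and tts-1 are high in fed cep1. In starved zip2, tts-1 lies at 634 to 1444 CPM.

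Families of detoxification and defence contributed single members rather than whole groups. Of 61 tested UDP-glucuronosyltransferase genes 3 were called higher and 0 lower, beside 1.15% and 0.554% over all genes. ugt-31 was at 3.21, 4.17 and 8.74 CPM in cep1, against 1, 0.752 and 0.901 CPM in zip2 (log2 fold change 2.59, SE 0.36, edgeR adjusted p 0.000506), while ugt-18 and ugt-43 had log2 fold changes of 2.91, edgeR adjusted p 0.0285 and 2.28, edgeR adjusted p 0.0225. Of 64 tested cytochrome P450 genes 2 were called higher and 1 lower (4.69%, beside 1.71% over all genes). Of the higher ones, cyp-29A3 was at 2.68, 6 and 4.75 CPM in cep1, against 0.582, 0.868 and 0.772 CPM in zip2 (log2 fold change 2.59, SE 0.41, edgeR adjusted p 0.00201), and cyp-14A5 at 6.05, 8.99 and 16.06 CPM in cep1, against 2.54, 2.2 and 2.49 CPM in zip2 (log2 fold change 2.10, edgeR adjusted p 0.0275). Both had zip2 below efk1 and N2, whose fed cyp-29A3 values reached from 2.82 to 4.73 CPM. Among 169 tested C-type lectin genes 5 were called higher and 1 lower, a share of 3.55%, beside 1.71% over all genes. Of the 5 lectin genes called higher, clec-67 was the most abundant at 28.6, 39.5 and 55.1 CPM in cep1, against 10.3, 15.7 and 10.5 CPM in zip2 (log2 fold change 1.76, SE 0.39, edgeR adjusted p 0.0234). The other 4, clec-7, clec-28, clec-222 and clec-40, lost their calls in 4 or 5 of the 6 fits without 1 library, all of them without zip2 replicate 3. The log2 fold changes of clec-7, clec-28 and clec-222 were 1.10, 1.72 and 2.13. clec-40 had 10, 4 and 5 counts in cep1, against 1, 0 and 1 counts in zip2, a ratio of 7.58 with a counting interval of 1.83 to 67.1. Of 81 lysozyme, saposin-like and antimicrobial genes 2 were called higher, namely dod-22 and lys-7, a share of 2.47%, beside 1.15% over all genes. Among 219 F-box genes 5 were called higher and 0 lower, with a median of 0.49, a share of 2.28% that is near the 1.71% over all genes. fbxa-192 was at 17.6, 16.7 and 11.5 CPM in cep1, against 4.65, 4.69 and 4.29 CPM in zip2 (log2 fold change 1.75, SE 0.24, edgeR adjusted p 0.000374), and fbxa-76 at 5.28, 3.57 and 3.36 CPM in cep1, against 1.37, 0.694 and 1.12 CPM in zip2 (log2 fold change 1.93, SE 0.28, edgeR adjusted p 0.000754). In fbxa-192 the cep1 libraries stood above all others, and in fbxa-76 the zip2 libraries stood below all others. The other 3, fbxa-158, fbxa-182 and fbxb-103, lost their calls in 5 of the 6 fits without 1 library (edgeR adjusted p up to 0.199). fbxb-103 had 17, 25 and 1 counts in cep1, against 1, 0 and 1 counts in zip2, a ratio of 17.2 with a counting interval of 4.47 to 146. Members of these families can be near-identical, and how the authors' counting shared reads between them is not given in the sources used here. Leaving out any 1 zip2 library or cep1 replicate 2 ended the calls of clec-67, cyp-14A5, ugt-18 and ugt-43 (edgeR adjusted p up to 0.163), but no single omission ended those of ugt-31, cyp-29A3, fbxa-192 and fbxa-76.

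A small number of lipid genes was called. Of 79 tested lipases and lipid enzymes 3 were called higher (3.8%, beside 1.15% over all genes) and 0 lower, and the list's median log2 fold change was 0.01, or -0.08 with upper quartile scaling. atgl-1, the adipose triglyceride lipase, was at 58.5, 62.4 and 42.8 CPM in cep1, against 30.9, 20.8 and 22.1 CPM in zip2 (log2 fold change 1.15, SE 0.24, edgeR adjusted p 0.0182). acox-1.3, a peroxisomal acyl-CoA oxidase, and lipl-2, a lysosomal lipase, had log2 fold changes of 1.11, edgeR adjusted p 0.0297 and 2.07, edgeR adjusted p 0.0476. nhr-49, the nuclear receptor of fatty acid use, was at 109, 78 and 72.4 CPM in cep1, against 57.8, 52.5 and 57.7 CPM in zip2 (log2 fold change 0.63, SE 0.16, edgeR adjusted p 0.0492), and nhr-6, an NR4A-type receptor, at 2.8, 4.29 and 6.92 CPM in cep1, against 1.64, 1.97 and 1.07 CPM in zip2 (log2 fold change 1.59, SE 0.35, edgeR adjusted p 0.0241), as the 2 calls of 197 nuclear receptors, a share of 1.02% that is close to the share over all genes. mxl-3, a repressor of lysosomal lipases in fed worms, was at 51.1, 106 and 111 CPM in cep1, against 43, 45 and 45.7 CPM in zip2 (log2 fold change 1.01, SE 0.24, edgeR adjusted p 0.0326). rict-1, the Rictor subunit of TOR complex 2, and atg-4.1, an autophagy protease, had log2 fold changes of 0.93, edgeR adjusted p 0.032 and 1.16, edgeR adjusted p 0.0396. mxl-3, rict-1 and atg-4.1 were chosen after their values were seen. In atgl-1, acox-1.3, nhr-49, mxl-3, rict-1 and atg-4.1 every cep1 library stood above all 9 other fed libraries. Each of these 8 calls was lost in 4 or 5 of the 6 fits without 1 library, among them those without zip2 replicate 2 and without zip2 replicate 3, with adjusted p up to 0.240 for nhr-49 and 0.202 for atg-4.1.

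Yolk, oocyte and L4 collagen genes differed in the sign of all tested members, although edgeR called 0 of them. All 6 vitellogenin genes, which encode yolk proteins of the adult intestine, had a positive sign with a median log2 fold change of 1.85, and all 31 oocyte and maternal genes did with a median of 0.96. An unadjusted p under 0.05 was reached by 5 vitellogenin and 21 oocyte genes, and DESeq2 called 2 and 4 of them higher. Over all genes 20% reached that p, and DESeq2 called 534 of 15871 higher and 283 lower. Their summed level was spread widely within each strain. Vitellogenins summed to 44889.8, 24189 and 11333 CPM in fed cep1, against 11973, 14066 and 4864 CPM in fed zip2, 2481 to 4539 CPM in efk1 and 7363 to 13716 CPM in N2. Oocyte genes summed to 16469, 11026 and 5201 CPM in fed cep1, against 8044, 5129 and 3985 CPM in fed zip2. The groups overlapped in both lists, cep1 replicate 3 lying within the zip2 range. L4 cuticle collagens ran the other way, with 1340.1, 2667 and 3854 CPM in cep1 and 3519, 4502 and 5325 CPM in zip2, and all 5 genes had a negative sign, with 0 called by DESeq2 and 0 at an unadjusted p under 0.05. Adult cuticle collagens had a negative median of -1.38. They summed to 2736, 1868 and 1694 CPM in cep1, against 2636, 3599.6 and 1671 CPM in zip2, with col-7 at a log2 fold change of -1.41, col-62 at -1.38 and col-19 at 0.05. Both col-7 and col-62 had every cep1 library below every zip2 library, and edgeR called 0 of the 3, with 2 at an unadjusted p under 0.05 and 2 called lower by DESeq2. The germline core list was split, with 14 of 26 genes positive, a median of 0.02 (-0.10 with upper quartile scaling), 3 at an unadjusted p under 0.05 and 0 calls by edgeR or DESeq2. Among the cep1 libraries, the order by L4 collagen was the reverse of the order by yolk and oocyte RNA. lin-41, a regulator of oocyte maturation, was at 142, 74.3 and 37.7 CPM in cep1, against 48.3, 27.5 and 18.9 CPM in zip2 (log2 fold change 1.43, SE 0.37, edgeR adjusted p 0.0523), and vit-1 at 3101, 1636 and 326 CPM in cep1, against 399, 382 and 189 CPM in zip2 (log2 fold change 2.38, SE 0.62, edgeR adjusted p 0.0551). In whole-worm RNA, more cells of a type and more RNA per cell cannot be told apart. The part of developmental stage in the 271 calls was not tested. Without cep1 replicate 1 and zip2 replicate 3, the ends of the vitellogenin range, 81 genes were called, 74 of them among the 271, an alternative chosen after seeing the data.

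**Figure D3:**
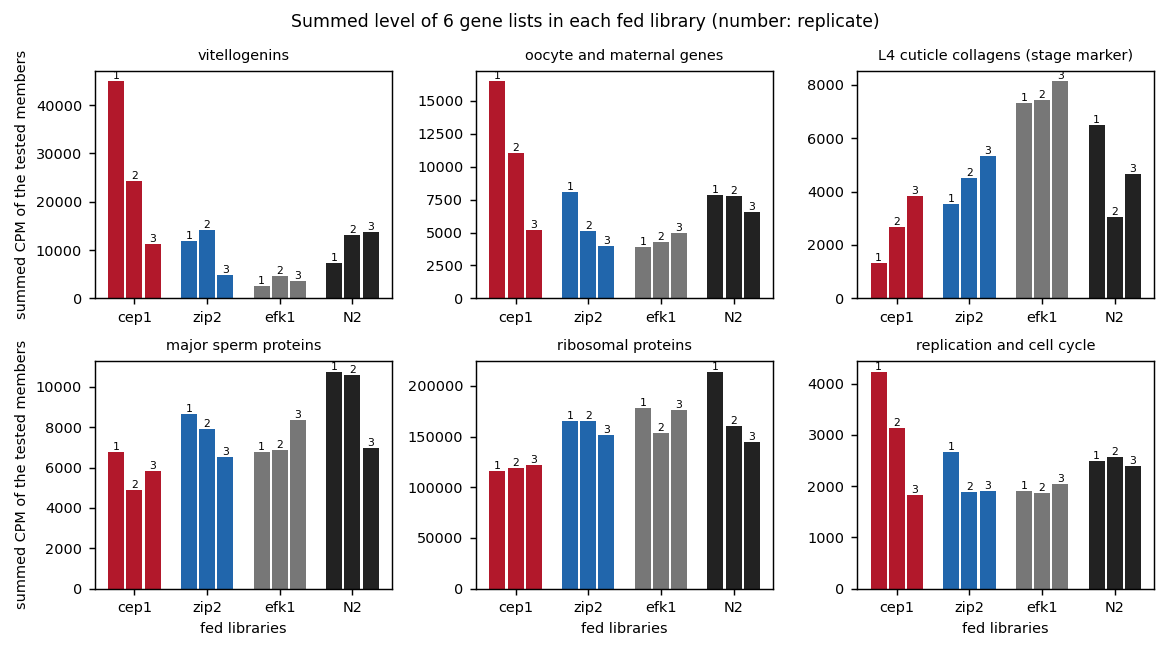
Summed CPM of the tested members of 6 gene lists (y axis, from 0) in each of the 12 fed libraries, 3 bars per strain with the replicate number above each bar. Vitellogenin and oocyte sums are highest in cep1 replicates 1 and 2, and ribosomal protein sums are lower in all 3 cep1 bars than in every other bar.

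Ribosomal protein genes had small negative differences almost throughout, and edgeR called 0 of them. Of 81 tested genes 79 had a negative sign and 70 had every cep1 library below every zip2 library, beside 16.4% of all genes. DESeq2 called 0 as well, beside 817 of 15871 over all genes. An unadjusted p under 0.05 was reached by 18, beside 20% over all genes. The median log2 fold change was -0.43. Their summed level was 115852, 118977 and 121849 CPM in fed cep1, against 165662, 165485 and 151722 CPM in fed zip2. rpl-27 was at 577, 665 and 689 CPM in cep1, against 1207, 1217 and 1230.3 CPM in zip2 (log2 fold change -0.92, SE 0.31, edgeR adjusted p 0.121), and rps-25 at 1049, 1054 and 1094 CPM in cep1, against 1791, 1735 and 1836 CPM in zip2 (log2 fold change -0.75, SE 0.24, edgeR adjusted p 0.108). In both genes the cep1 values lay close together and below every zip2 value. Translation factors had a median of -0.30, with 21 of 42 genes below in every cep1 library, and nuclear genes of the respiratory chain -0.17, with 22 of 51. Major sperm protein and sperm genes had a negative sign in 73 of 83 and no overlap in 44, with a median of -0.47, 15 at an unadjusted p under 0.05 and DESeq2 calling 2. Their sum was 6746, 4892 and 5834 CPM in cep1 and 8644, 7919.7 and 6509 CPM in zip2, which overlap between cep1 replicate 1 and zip2 replicate 3. Replication and cell cycle genes had a positive sign in 33 of 35, with a median of 0.44, 0 calls by edgeR, 9 at an unadjusted p under 0.05 and 1 call by DESeq2. Among collagens of the col family, 1 of 135 was called higher and 1 lower (1.48%, beside 1.71% over all genes), with a median of -0.49. col-150 was at 17.8, 30.0 and 33.9 CPM in cep1, against 68, 99.3 and 52.4 CPM in zip2 (log2 fold change -1.43, SE 0.35, edgeR adjusted p 0.0394), and its call was lost in 5 of the 6 fits without 1 library, with adjusted p up to 0.216 without zip2 replicate 2.

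The same strains were compared after starvation, in 6 libraries on neither side of the fed contrast. These libraries entered the same filter, fit and shared estimate of spread, so the starved calls were not a fully independent repeat. There 1665 genes were called (10.5%), 666 higher in cep1 (4.2%) and 999 lower (6.29%). Of the 271 genes called in fed animals, 260 had the same sign in starved animals, where over all genes 72.1% did. Calls in the same direction were made for 121, which is 44.7% of the fed and 7.27% of the starved calls, and calls in the opposite direction for 0. Genes lower in fed cep1 were called again in 54 of 88 cases (61.4%), and genes higher in 67 of 183 (36.6%). The starved difference was smaller than the fed one in 221 of the 271, a description, since the fed difference chose the genes. Fitting only the 6 starved libraries called 11 genes, a fit that also tested fewer genes and had its own scaling and fewer degrees of freedom.

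Among named genes lower in fed cep1, dpyd-1, Y34B4A.5, T20F5.7 and haf-6 were called again after starvation. dpyd-1 was at 9.45, 10.6 and 8.42 CPM in the starved cep1 libraries, against 56, 72 and 96.3 CPM in the starved zip2 libraries (log2 fold change -2.98, SE 0.23, edgeR adjusted p 2.72e-07). Y34B4A.5 was at 0.473, 0.63 and 0.554 CPM in cep1, against 6.87, 26.2 and 11.5 CPM in zip2 in starved animals (log2 fold change -4.72, SE 0.42, edgeR adjusted p 1.57e-06), and T20F5.7 at 16.5, 14.1 and 12.7 CPM in cep1, against 63.5, 63.2 and 49.5 CPM in zip2 (log2 fold change -2.02, SE 0.19, edgeR adjusted p 2.48e-06). haf-6 was at 8.98, 6.2 and 9.58 CPM in cep1, against 24.2, 42.4 and 27.1 CPM in zip2 (log2 fold change -1.92, SE 0.22, edgeR adjusted p 2.98e-05), and starved N2 again lay with cep1 at 7.17 to 7.97 CPM. None of these overlapped between the starved mutants. irg-2 had 22, 159 and 17 counts in starved cep1, against 1, 0 and 1 counts in starved zip2, a ratio of 68.2 with a counting interval of 18.6 to 567 (log2 fold change 5.79, SE 1.33, edgeR adjusted p 0.00992). irg-5 was at 8.8, 47 and 15.3 CPM in cep1, against 5.91, 6.78 and 6.12 CPM in zip2 (log2 fold change 1.92, SE 0.50, edgeR adjusted p 0.0183). Some genes higher in fed cep1 were not called after starvation. tts-1 reached 1574, 1454 and 2163 CPM in the starved cep1 libraries, against 846, 1444 and 634 CPM in the starved zip2 libraries (log2 fold change 0.83, SE 0.45, edgeR adjusted p 0.264), F45D11.14 was at 127, 213 and 299.6 CPM in cep1, against 136, 233 and 70.2 CPM in zip2 (log2 fold change 0.54, SE 0.69, edgeR adjusted p 0.676), and catp-3 at 12.2, 30.3 and 15.7 CPM in cep1, against 12.2, 5.88 and 15.1 CPM in zip2 (log2 fold change 0.80, SE 0.46, edgeR adjusted p 0.302). A call in fed and none in starved animals does not show a difference between the conditions, and the interaction was not called for any of these genes. Its edgeR adjusted p was 0.173 for tts-1, 0.242 for F45D11.14 and 0.332 for catp-3. Over all genes the edgeR interaction was called for 5 (0.0315%), none of which was called in fed animals, and 961 genes (6.06%) had an unadjusted p below 0.05.

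**Figure D4:**
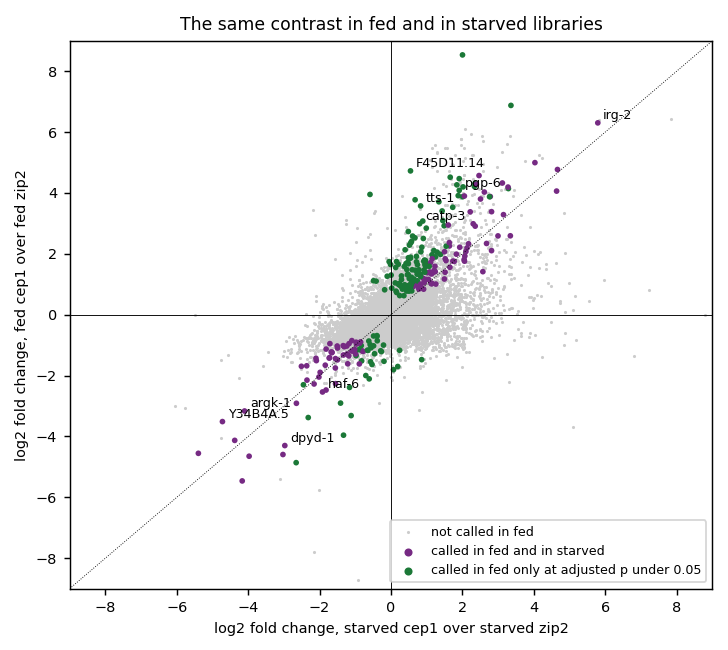
Log2 fold change of cep1 over zip2 in starved libraries (x axis) against that in fed libraries (y axis) for each tested gene, with the line of equal change dotted. Purple points are the 121 genes called in both conditions in the same direction, green points those called in fed animals only, and grey points the rest. Most coloured points share their sign, and those in green lie mainly between the line and the fed axis.

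The called genes were spread over all chromosomes. Chromosome V held 86 of the 271 among 3166 tested genes (2.72%), and the others ranged from 27 of 2387 on III (1.13%) to 43 of 2564 on I (1.68%). The neighbourhood of both targeted genes was counted as well. Within 1 Mb of cep-1, 7 of 400 tested genes were called (1.75%), and within 1 Mb of zip-2, 4 of 255 (1.57%), close to the 1.71% over all genes. Near cep-1, dhs-3, a dehydrogenase of lipid droplets, was at 64, 72.5 and 95.5 CPM in cep1, against 129, 165 and 155 CPM in zip2 (log2 fold change -0.95, SE 0.18, edgeR adjusted p 0.00916), with all zip2 libraries above every other fed library. wdr-23, a repressor of the stress factor SKN-1, was at 62.2, 55.4 and 45.7 CPM in cep1, against 33, 26 and 29.8 CPM in zip2 (log2 fold change 0.88, SE 0.16, edgeR adjusted p 0.0053), with all cep1 libraries above every other. C15A11.7 was at 6.3, 6.4 and 7.32 CPM in cep1, against 15.5, 17 and 16.3 CPM in zip2 (log2 fold change -1.28, SE 0.22, edgeR adjusted p 0.00362). Near zip-2, far-8, a fatty acid and retinol binding protein gene 9.9 kb from its start, was at 35.9, 41 and 55.6 CPM in cep1, against 75.5, 90.1 and 96.6 CPM in zip2 (log2 fold change -0.99, SE 0.21, edgeR adjusted p 0.0187). BE0003N10.6 was at 0.447, 1.38 and 1.34 CPM in cep1, against 22.2, 6.48 and 20.9 CPM in zip2 (log2 fold change -3.96, SE 0.57, edgeR adjusted p 0.000722), the steepest difference near either gene. dhs-3 lost its call without zip2 replicate 2 or 3 or cep1 replicate 2 (adjusted p up to 0.0637), and far-8 without zip2 replicate 2 or 3 or cep1 replicate 1 or 2 (up to 0.106). wdr-23 lost its call without zip2 replicate 2 (0.0512) and when only the 6 libraries were fitted (0.0850). Further calls near cep-1 were F26A3.4, F27D4.8 and F27D4.12, with log2 fold changes of 1.39, 1.38 and 2.33, and T02E1.6 with -1.23. Near zip-2 they were fbxa-76, described above, and Y50D7A.8 with 0.98. F26A3.4, F27D4.8 and Y50D7A.8 each lost the call in 4 of the 6 fits without 1 library (edgeR adjusted p up to 0.121, 0.134 and 0.150), and F27D4.12 without zip2 replicate 2 (0.0597).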

How the data were processed

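Whole-worm mRNA was sequenced in 24 libraries, 3 for each of 8 groups of strain and food. The authors deposited an estimated count per gene and library, not scaled to depth. Per the submitters' processing notes, Trimmomatic 0.36, Salmon 0.9.1, edgeR and the build WBcel235 were used, with no role given. Per the labels' protocols the libraries were strand-specific. The annotation release, the use of strand in counting and the treatment of reads shared by near-identical genes are not given in the sources used here; values of near-identical or overlapping genes are uncertain to that extent. Of the nonzero values 10.6% were not whole, and the counts were rounded. The table holds 43800 genes, of which 20670 had no count, and every column was used. Coordinates come from the Ensembl annotation of WBcel235, matched by symbol for 15770 of the 15871 genes tested.

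Groups were taken from the sample titles. Genes passed edgeR's expression filter (minimum count 10, minimum total 15), libraries were scaled by TMM factors, and robust quasi-likelihood fits of edgeR 4.0.16 in R 4.3.3 gave each gene 1 mean per group over all 24 libraries (residual degrees of freedom 16). The common coefficient of biological variation was 29.0%. Contrasts were cep1 against zip2 in fed animals, the same in starved animals, and their difference (interaction). Benjamini-Hochberg adjustment ran over all 15871 genes tested, a gene was called under 0.05, and SE is the log2 fold change divided by the root of the F statistic. For genes described here with 3 counts or fewer in all in either group, the ratio of summed counts is given with an exact binomial interval, which covers counting error only, since reads carried no molecular identifiers. The fits were tested on simulated data.

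Named genes were the 12 called genes with the largest change each way out of those without overlap between groups whose mean log2 CPM reached 2, called members of 46 gene lists, the targeted genes, called genes within 1 Mb of them and a small number known from earlier results. The members and lists were chosen with earlier results of these data known. Alternatives were RLE and upper quartile scaling, no filter, a minimum count of 50, fits of only the groups compared or without N2, replicate number as a block, leaving out each library, and DESeq2 1.42.0.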

Additional observations from a re-analysis of the deposited data

Results flagged for a closer look

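The interaction of strain and food, which tests whether the difference between cep1 and zip2 depended on food, called 5 genes of 15871 with edgeR. All 5 were called in the starved contrast and not in the fed one. amt-4, an ammonium transporter gene, was at 39.8, 39.2 and 38.2 CPM in cep1, against 35.5, 36.3 and 46.8 CPM in zip2 in fed animals and at 40.6, 78.7 and 65.7 CPM in cep1, against 9.66, 9.41 and 13.2 CPM in zip2 in starved animals. Its fed minus starved difference was -2.54 on the log2 scale (SE 0.35, edgeR adjusted p 0.00619), with no overlap in starved animals and overlap in fed ones. msra-1, a methionine sulfoxide reductase gene, was at 554, 535 and 717 CPM in cep1, against 686, 861 and 684 CPM in zip2 in fed animals and at 45.8, 51 and 30.1 CPM in cep1, against 183, 158 and 214 CPM in zip2 in starved animals, a difference of 1.82 (edgeR adjusted p 0.0279). T27E4.7 had a difference of -1.86 (edgeR adjusted p 0.0145), with 5.69, 8.35 and 6.68 CPM in cep1, against 7.35, 8.04 and 7.72 CPM in zip2 in fed and 21.8, 17.5 and 22.9 CPM in cep1, against 6.5, 6.06 and 6.55 CPM in zip2 in starved animals. Y51F10.7 had a difference of 2.09 (edgeR adjusted p 0.0279), with 17.5, 8.65 and 17.5 CPM in cep1, against 39.2, 74.9 and 41.8 CPM in zip2 in starved animals. In fed animals it had 3623, 3714 and 3487 counts in cep1, against 2121, 2170 and 2989 counts in zip2. The fed groups did not overlap and differed in the opposite direction to the starved ones. ifa-3, an intermediate filament gene of low level, had a difference of -5.63 (edgeR adjusted p 0.0145), with 0.244, 0.324 and 0.198 CPM in cep1, against 0.529, 0.752 and 0.772 CPM in zip2 in fed and 5.45, 6.27 and 0.941 CPM in cep1, against 0.375, 0.0904 and 0.125 CPM in zip2 in starved animals. The call was kept in 19 of 21 alternatives for amt-4, in 16 of 21 for T27E4.7, in 13 of 20 for ifa-3, in 9 of 21 for msra-1 and in 8 of 21 for Y51F10.7.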

How the results depend on the processing

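The count of fed calls, 271 (183 higher, 88 lower), stayed within 1.5 times with RLE scaling (249), upper quartile scaling (261), no filter (197) and a minimum count of 50 (262). With only the groups compared it was 80 (43 higher, 37 lower), with 11 starved and 1 interaction call. Without the 6 N2 libraries it was 155 (102 higher, 53 lower), 151 of them among the 271, with 3 interaction calls. DESeq2 called 817 (534 higher, 283 lower), 267 of them among the 271, and 87 in the interaction. The main fit had no replicate block, and whether replicate numbers pair the samples is not settled here. Deviations of same-numbered fed cep1 and zip2 libraries correlated at 0.546, -0.0963 and 0.264, and those of differently numbered ones at -0.594 to 0.260. In starved libraries the values were 0.320, -0.651 and -0.508 for the same number and -0.622 to 0.752 for different numbers. With a replicate block, the 6 fed libraries gave 1093 calls (621 higher, 472 lower), the starved ones 5 and the interaction 0, and all 24 libraries gave 278 fed and 3 interaction calls. Without cep1 replicate 1 and zip2 replicate 3, an alternative chosen after seeing the data, 81 genes were called (60 higher, 21 lower). Leaving out 1 library gave 60 to 1184 fed calls (33 to 866 higher, 25 to 318 lower), 517 to 2480 starved calls and 1 to 47 interaction calls. The fed count was 107, 80 and 60 without zip2 replicates 1, 2 and 3, and 174, 84 and 1184 without cep1 replicates 1, 2 and 3. Of 74 named genes called, 24 were called under every alternative, 50 lost the call under at least 1 and 0 reversed. cep-1, not called, had a log2 fold change from -0.287 to 0.0934 over single omissions, positive at 0.044 without zip2 replicate 1 and at 0.0934 without cep1 replicate 3. The causes were not tested. With 3 libraries a group, genes with few counts rest on wide counting intervals.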
